A study of Mus musculus with 29 samples.

Results

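The transcription factors *Gata3*, *Tcf7*, *Bcl11b*, *Tox*, *Runx3*, *Zbtb7b*, *Zbtb16* and *Eomes*, which direct T cell and innate lymphoid development, were followed in RNA-seq libraries of mouse bone marrow pro-B cells. The 8 genes were chosen by name, and each had 1 entry among the 24732 entries of the mm9 tables and 1 among the 25588 entries of the mm10 tables. The mm9 tables hold 3 libraries of wild-type pro-B cells and 2 of Pax5-/- cells, labelled pro-B cells as well, which lack the B cell commitment factor Pax5, and the mm10 tables hold 3 libraries of pro-B cells from Meox2-cre mice. All mice were C57BL/6, and all cells were sorted *ex vivo*. Cre is expressed from the *Meox2* locus in all tissues of the Meox2-cre mice, whose cells were pooled and which were 3 weeks old. The sample labels call these mice Pax5(+/+), and the study's text names its 3-week-old controls Pax5+/+. The study's list of sequenced samples gives Pax5(+/-) instead, so that their *Pax5* genotype is not settled here. The age of the wild-type and Pax5-/- mice is not given in the sources used here. Both kinds of cell were sorted as B220+ Kit+, but the remaining markers of the gates differed, with Ly6D used for Pax5-deficient progenitors and CD2, IgM and IgD for pro-B cells, so that genotype and sort gate cannot be told apart in any comparison below. Nothing states that the libraries of a group came from separate animals, and p-values then measure only the spread between these libraries.

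T cell development begins when Notch signals in the thymus switch on *Tcf7*, which encodes TCF-1, and *Gata3*, and *Bcl11b* then closes off other fates. *Runx3* and *Zbtb7b*, which encodes ThPOK, oppose each other when thymocytes choose between the CD8 and CD4 lineages. *Tox* is needed for CD4 T cells and innate lymphoid cells, *Zbtb16*, which encodes PLZF, marks innate lymphoid precursors and natural killer T cells, and *Eomes* directs natural killer cells and memory CD8 T cells. Pax5 is known for keeping B cell progenitors from entering such other lineages.

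Without Pax5, *Runx3*, *Tcf7* and *Tox* were 1.81-, 1.83- and 2.23-fold higher, *Zbtb7b* was 6.85-fold lower, and *Gata3*, *Bcl11b*, *Zbtb16* and *Eomes* remained below 1 TPM in every library. TPM, a measure of transcript abundance, are scaled by gene length and to the same sum in every library, so that genes can be ordered within a library. Of the 8 genes, 4 exceeded a mean of 1 TPM in a genotype and were tested with limma on log2(TPM + 0.5). At an adjusted p-value below 0.05 over all 12066 entries tested, 3 of these 4 rose and 1 fell, where 15.6% of all entries tested rose, 21.5% fell and 37.1% thus changed in either direction. Among these 4, both Pax5-/- libraries lay above every wild-type library for the same 3 genes and below for *Zbtb7b*. This held upward for 26.1% and downward for 37.4% of all entries tested. *Zbtb7b* passed the filter only through its wild-type level, whereas the other 3 passed it in both genotypes. None of the 8 met the stricter call rule taken from the study's methods, which adds a 3-fold threshold and a level above 5 TPM in one genotype, and which 2.71% of all entries tested met upward and 3.15% downward.

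**Figure D1:**
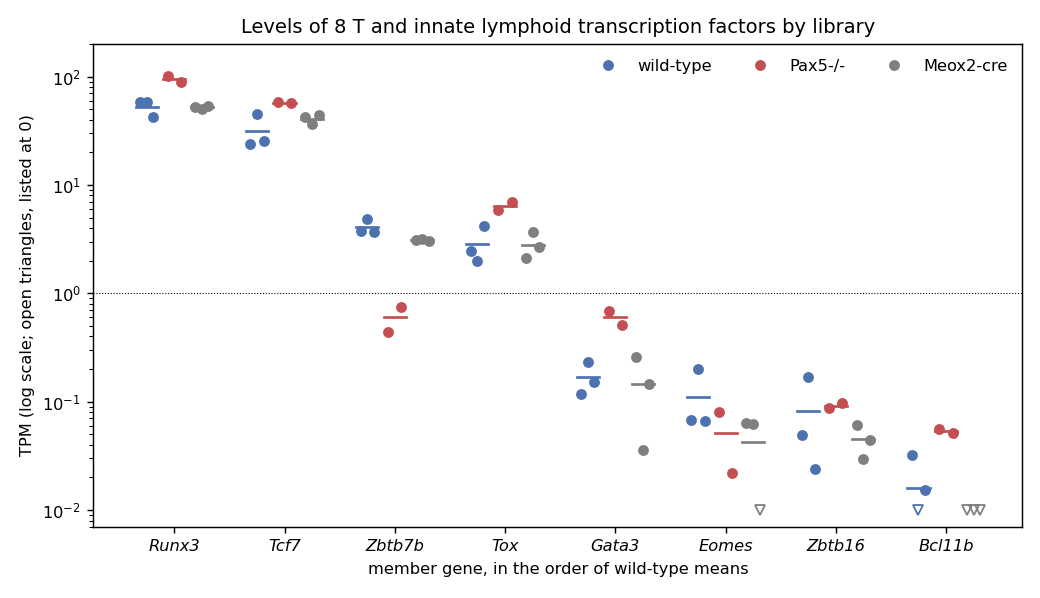
TPM of the 8 genes on a log axis, with 1 point per library, a bar at the group mean and open triangles at the bottom for values listed at 0; blue, 3 wild-type libraries; red, 2 Pax5-/- libraries; grey, 3 Meox2-cre libraries from tables made with another genome build. *Runx3*, *Tcf7* and *Tox* of Pax5-/- cells lie above every wild-type library, *Zbtb7b* lies below, and the 4 genes on the right stay under the dotted line at 1 TPM.

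The promoters of *Runx3* and *Zbtb7b* are shown first, since these were the tested genes whose calls changed least with the processing and which moved in opposite directions. RefSeq promoter windows were found for 6 of the 8 genes, and those of *Runx3* and *Zbtb7b*, 2 starts each, are printed 5′ to 3′ on the gene's strand as the 250 bases before the start (build GRCm38.p6). The motifs searched on both strands were AACCACA for RUNX factors, CTTTGA for TCF/LEF factors, AGATAA for GATA factors, CAGCTG for E proteins and GCGTGAC as a core of the Pax5 paired-domain site. Matches are in capitals.

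Runx3, distal start, chr4:135120395-135120644, plus strand: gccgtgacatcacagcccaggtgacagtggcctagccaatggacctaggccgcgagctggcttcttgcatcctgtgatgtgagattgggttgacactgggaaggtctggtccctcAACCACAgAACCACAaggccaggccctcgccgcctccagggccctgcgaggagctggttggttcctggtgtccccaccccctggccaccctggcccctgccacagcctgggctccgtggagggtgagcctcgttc

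Runx3, proximal start, chr4:135152295-135152544, plus strand: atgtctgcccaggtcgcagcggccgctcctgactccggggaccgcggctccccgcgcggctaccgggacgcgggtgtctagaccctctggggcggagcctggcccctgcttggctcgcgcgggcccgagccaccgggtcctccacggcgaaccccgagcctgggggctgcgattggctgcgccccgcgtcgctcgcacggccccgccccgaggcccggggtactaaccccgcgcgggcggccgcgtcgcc

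Zbtb7b, distal start, chr3:89393379-89393628, minus strand: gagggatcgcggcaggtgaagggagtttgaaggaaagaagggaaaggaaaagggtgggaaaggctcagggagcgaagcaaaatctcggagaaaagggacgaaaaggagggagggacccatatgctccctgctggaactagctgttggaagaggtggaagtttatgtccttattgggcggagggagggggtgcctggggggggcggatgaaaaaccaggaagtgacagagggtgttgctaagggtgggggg

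Zbtb7b, proximal start, chr3:89387672-89387921, minus strand: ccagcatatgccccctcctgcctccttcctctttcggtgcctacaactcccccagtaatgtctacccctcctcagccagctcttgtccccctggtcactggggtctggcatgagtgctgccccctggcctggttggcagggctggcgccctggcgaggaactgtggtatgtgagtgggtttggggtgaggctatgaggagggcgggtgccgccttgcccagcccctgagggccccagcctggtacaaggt

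The distal *Runx3* window held AACCACA 2 times on the gene's strand, starting 135 and 127 bases before the start and separated by 1 base. A match to AACCACA was present in 4.4% of all 32851 promoter windows of this length. The proximal *Runx3* window and both *Zbtb7b* windows held none of the motifs. Of the 9 windows of the 6 genes, 6 held no match, and the other matches were a CAGCTG in 1 *Tcf7* window and a CTTTGA in the *Bcl11b* window, which 13.0% and 13.8% of all windows held. AGATAA was present in 9.99% of all windows but in none of these 9. The Pax5 core GCGTGAC was also in none of them, and 1.78% of all windows held it. No match overlapped another. The deposited values are sums over a whole gene and do not show which start was used.

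*Pax5* itself was at 342, 386 and 391 TPM in wild-type cells but only 43.0 and 39.1 TPM in the Pax5-/- libraries, a fall by 3.17 on the log2 scale (SE 0.11, adjusted p = 3.14e-06, limma). It was at 394, 376 and 397 TPM in the Meox2-cre libraries. Values of a whole gene do not show which part of *Pax5* was deleted. The TPM of the mm9 tables could be traced back to whole reads, with 16611464, 17862366 and 18301975 reads assigned to genes in the wild-type libraries and 14018910 and 24324106 in the Pax5-/- libraries. In bulk cells, fewer cells of a type and less RNA per cell cannot be told apart.

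*Tcf7* (mm9, chr11:52065873-52096681, minus strand), the first T cell factor induced by Notch, was already well expressed in wild-type cells, at 23.9, 44.9 and 25.5 TPM. The Pax5-/- libraries held 57.9 and 56.9 TPM, from 870 and 1544 reads. Both lay above every wild-type library, and the second wild-type library was the closest. The mean rose from 31.4 ± 11.7 (SD, n = 3) to 57.4 ± 0.732 TPM (SD, n = 2), a log2 change of 0.92 (SE 0.26, adjusted p = 0.0272, limma). This call was lost without either Pax5-/- library (adjusted p = 0.177 and 0.188), without the first or the third wild-type library (0.0573 and 0.0716), without the filter (0.0645) and without the intensity trend (0.0592), with the log2 change between 0.75 and 1.20 throughout.

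*Gata3* (chr2:9778705-9811661, minus strand), the partner of *Tcf7* at the entry into the T cell lineage, was detected at 0.118, 0.232 and 0.152 TPM in wild-type cells. The Pax5-/- libraries held 0.691 and 0.510 TPM. These values rested on 3, 6 and 4 reads against 15 and 20 reads. Both Pax5-/- libraries were higher than all wild-type libraries, while all 5 stayed below 1 TPM. Without a filter, 21.8% of 17368 entries were separated upward in this way. Summed over a group, *Gata3* had 0.246 reads per 1000000 assigned reads in wild-type cells (95% Poisson interval 0.131 to 0.421) and 0.913 in Pax5-/- cells (0.636 to 1.27), intervals that cover counting error only. *Gata3* did not reach the filter. Its log2 change was 0.72 (SE 0.14, adjusted p = 0.0169, limma) when no filter was applied, where 10.8% of 17368 entries rose, and 1.82 (SE 0.49, adjusted p = 0.0173) with limma-voom on the recovered reads, where 18.9% of 13919 entries rose and 17.8% fell.

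*Bcl11b* (chr12:109148613-109241812, minus strand), which completes T cell commitment, was close to absent. It had 2, 0 and 1 reads in the wild-type libraries and 3 and 5 reads in the Pax5-/- libraries, or 0.0320, 0 and 0.0154 TPM against 0.0561 and 0.0517 TPM. In the wild-type library with 0 reads, the limit that this allows, 3 reads, corresponds to 0.0470 TPM. Both Pax5-/- libraries were above the wild-type libraries, as for 21.8% of the 17368 entries without a filter. All 3 Meox2-cre libraries listed *Bcl11b* at 0. The change did not pass the test without a filter (adjusted p = 0.337, limma) or with limma-voom (adjusted p = 0.117). Its paralog *Bcl11a*, a factor of B cell and dendritic cell progenitors named here after its values were seen, was at 95.3, 122 and 97.9 TPM in wild-type cells and at 87.2 and 81.6 TPM in Pax5-/- cells, a log2 difference of -0.30 (SE 0.13, adjusted p = 0.107, limma).

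**Figure D2:**
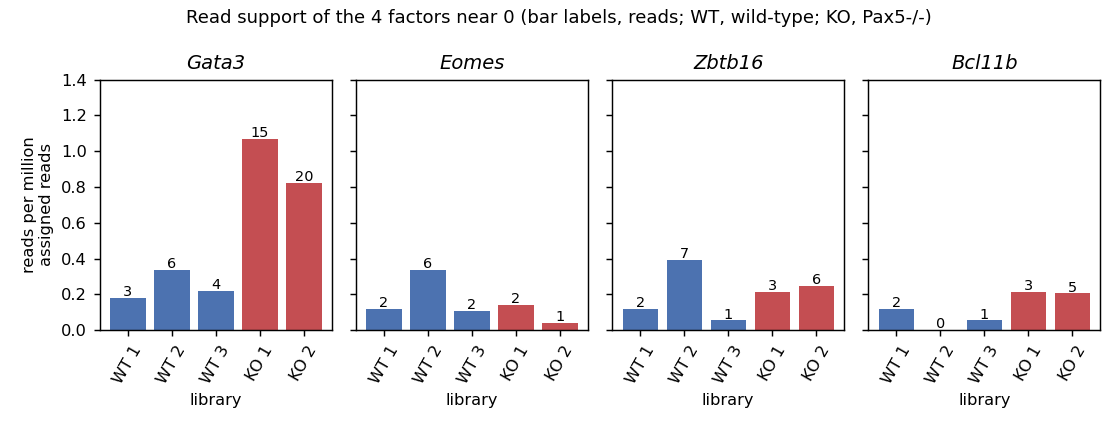
Reads per 1000000 assigned reads for *Gata3*, *Eomes*, *Zbtb16* and *Bcl11b* in each mm9 library, with the recovered number of reads above each bar. *Gata3* had 15 and 20 reads in the Pax5-/- libraries against 3, 6 and 4 in wild-type, whereas no other gene exceeded 7 reads in a library.

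*Tox* (chr4:6613500-6918704, minus strand), an HMG-box factor of CD4 T cells and innate lymphoid cells, was at 2.44, 2.00 and 4.16 TPM in wild-type cells and at 5.82 and 6.95 TPM in Pax5-/- cells. The groups did not overlap. The mean rose 2.23-fold, from 2.87 ± 1.14 (SD, n = 3) to 6.39 ± 0.805 TPM (SD, n = 2), or by a log2 change of 1.08 (SE 0.30, adjusted p = 0.0272, limma). The call was lost without either Pax5-/- library (adjusted p = 0.130 and 0.217), without the second wild-type library (0.0769) and without the filter (0.0665). *Tox2*, the related gene named here after its values were seen, had 1 read in each wild-type library and 0 in both Pax5-/- libraries.

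*Runx3* (chr4:134676567-134733905, plus strand), the CD8 lineage and innate lymphoid member of the RUNX family, had the highest mean of the 8 genes in all 3 groups. It was at 58.2, 58.3 and 42.2 TPM in wild-type cells and at 102 and 89.3 TPM in Pax5-/- cells. Again the groups did not overlap. The mean rose from 52.9 ± 9.26 (SD, n = 3) to 95.6 ± 8.97 TPM (SD, n = 2), or by a log2 change of 0.86 (SE 0.16, adjusted p = 0.00608, limma). Without the first or the second Pax5-/- library the adjusted p was 0.0893 or 0.0623. *Runx1*, the family member of early hematopoiesis, rose by less, from 60.7, 70.6 and 64.3 TPM to 91.7 and 80.1 TPM (log2 change 0.40, SE 0.12, adjusted p = 0.0340, limma), and was named after its values were seen. The ratio of *Runx3* to *Runx1* was 0.959, 0.826 and 0.657 in wild-type cells and 1.11 in each Pax5-/- library, and the difference between the 2 genes was not tested.

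*Zbtb7b* (chr3:89181566-89198698, minus strand), the CD4 lineage factor opposed to *Runx3* in thymocytes, went the other way. It was at 3.77, 4.81 and 3.71 TPM in wild-type cells, from 110, 143 and 112 reads, and at 0.442 and 0.755 TPM in Pax5-/- cells, from 11 and 34 reads. Every wild-type library was above both Pax5-/- libraries. The mean fell from 4.10 ± 0.617 (SD, n = 3) to 0.598 ± 0.222 TPM (SD, n = 2), a log2 change of -2.07 (SE 0.26, adjusted p = 0.00100, limma). Its log2 change stayed between -2.62 and -1.67 in 14 alternatives, limma treat not being among them. The call was not lost in any of the 14. In those that kept both Pax5-/- libraries, adjusted p was between 5.46e-04 and 0.00677 (limma or limma-voom). Without the first or the second Pax5-/- library the log2 change was -1.87 or -2.28. The mean of 4.10 TPM, under the 5 TPM of the call rule, was the only criterion that *Zbtb7b* missed. *Runx3* exceeded *Zbtb7b* 15.4-, 12.1- and 11.4-fold in wild-type cells and 231- and 118-fold in Pax5-/- cells.

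*Zbtb16* (chr9:48462416-48644050, minus strand), the PLZF gene of innate lymphoid precursors, had 2, 7 and 1 reads in wild-type and 3 and 6 reads in Pax5-/- libraries, or 0.0495, 0.170 and 0.0239 against 0.0869 and 0.0962 TPM. The groups overlapped. *Eomes* (chr9:118387330-118395250, plus strand), the natural killer cell factor, had 2, 6 and 2 reads against 2 and 1 reads, or 0.0682, 0.201 and 0.0659 against 0.0797 and 0.0221 TPM, and also overlapped. Neither passed the test without a filter (adjusted p = 0.863 and 0.460, limma) or with limma-voom (0.580 and 0.371). At these read numbers a modest change or a fall of either gene could have been missed. A large rise from a similar level was detected for *Il18r1*, from a mean of 0.129 to 6.06 TPM. *Tbx21*, the T-box relative of *Eomes* named here after its values were seen, had 3 reads or fewer in each of the 5 libraries.

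**Figure D3:**
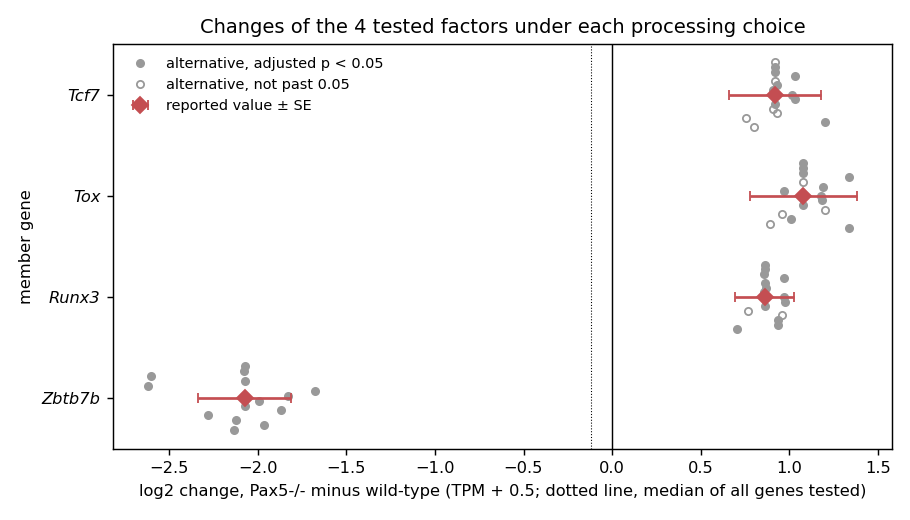
Log2 change of the 4 tested genes, Pax5-/- minus wild-type, as reported (red diamonds with SE) and under the processing alternatives (grey). Grey points are filled where the adjusted p is below 0.05 and open where it is not. Limma treat and the 2-fold threshold are not shown. *Zbtb7b* stays between -2.62 and -1.67 with every point filled, and *Tcf7*, *Tox* and *Runx3* stay above 0 with some open points.

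The order of the 8 levels differed between the genotypes. In wild-type cells the order of means was *Runx3*, *Tcf7*, *Zbtb7b*, *Tox*, *Gata3*, *Eomes*, *Zbtb16* and *Bcl11b*, and the library ranges separated only *Tcf7* from *Zbtb7b* and *Tox* from *Gata3* among neighbours. In Pax5-/- cells *Tox* came directly after *Tcf7*, and *Zbtb7b* fell behind *Gata3*, with a range that overlapped that of *Gata3*, and *Zbtb16*, *Bcl11b* and *Eomes* followed, the last pair with overlapping ranges. The sum of the 8 genes was 88.5, 111 and 75.8 TPM in wild-type and 167 and 155 TPM in Pax5-/- cells, most of it *Runx3* and *Tcf7*. Among the wild-type libraries, the second had the highest value for 6 of the 8 genes, namely *Gata3*, *Tcf7*, *Runx3*, *Zbtb7b*, *Zbtb16* and *Eomes*, and the lowest for *Bcl11b* and *Tox*.

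In the Meox2-cre libraries the order of means was that of wild-type cells except that *Zbtb16* and *Eomes*, whose ranges overlapped in both groups, changed places. No test was made because genome build, aligner and annotation differed. *Runx3* was at 52.2, 50.0 and 53.9 TPM, *Tcf7* at 42.7, 36.2 and 44.2 TPM and *Zbtb7b* at 3.08, 3.20 and 3.04 TPM. *Tox* was at 2.13, 3.64 and 2.68 TPM and *Gata3* at 0.259, 0.0359 and 0.144 TPM. *Zbtb16* was at 0.0612, 0.0297 and 0.0447 TPM and *Eomes* at 0.0641, 0.0622 and 0 TPM. The values of *Runx3*, *Tcf7* and *Tox* were all below those of both Pax5-/- libraries, and those of *Zbtb7b* all above.

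Beside *Tcf7*, the 22 factors listed as partners and relatives of the 8 genes moved in both directions, with 17 tested, 4 higher, 6 lower and a median log2 change of -0.17, against -0.12 for all entries tested. Among all entries tested, 15.6% were higher and 21.5% lower. *Lef1*, the other TCF/LEF factor of early lymphocytes, was at 481, 595 and 530 TPM in wild-type cells and at 7.63 and 4.62 TPM in Pax5-/- cells, a log2 change of -6.37 (SE 0.20, adjusted p = 2.63e-06, limma). *Tcf7* was thus at 0.0496, 0.0755 and 0.0481 times the level of *Lef1* in wild-type cells, at 7.59 and 12.3 times in Pax5-/- cells, and at 0.0835, 0.0691 and 0.0779 times in Meox2-cre cells. *Id2*, the inhibitor of E proteins needed by innate lymphoid cells, rose from 3.09, 5.96 and 4.33 to 26.3 and 26.1 TPM, while *Id3*, the related inhibitor, fell from 670, 700 and 531 to 147 and 149 TPM. *Tcf3*, which encodes the E proteins E12 and E47, fell from a mean of 1261 to 375 TPM (log2 change -1.74, SE 0.14, adjusted p = 1.05e-04, limma). *Satb1* and *Nfil3*, named after their values were seen, made up the count of 4 higher genes together with *Id2* and *Runx1*, with log2 changes of 1.20 and 1.57.

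**Figure D4:**
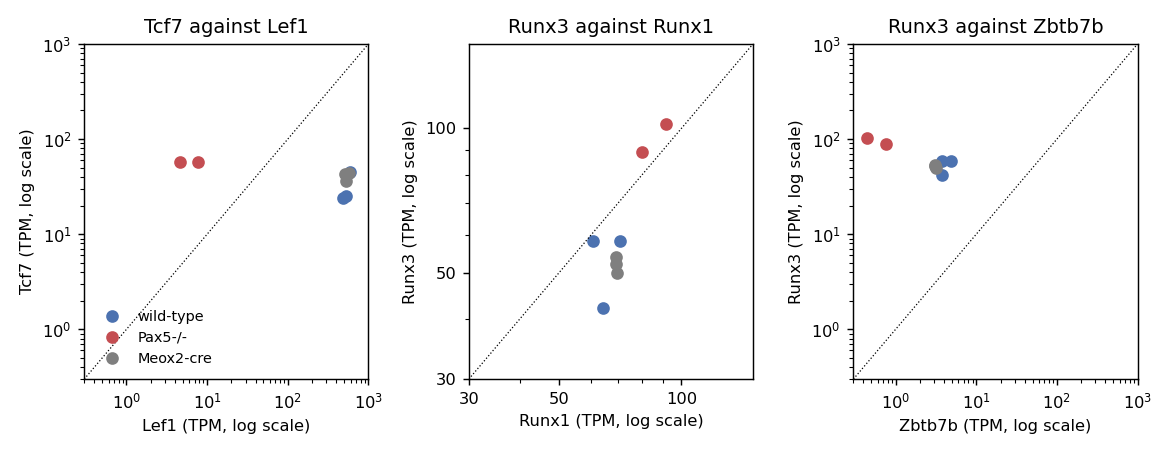
TPM of *Tcf7* against *Lef1*, *Runx3* against *Runx1* and *Runx3* against *Zbtb7b*, with 1 point per library on log axes and a dotted line of equal levels; the Meox2-cre points come from separately made tables. The Pax5-/- points have crossed the line for *Tcf7* and *Lef1*, lie just above it for *Runx3* and *Runx1*, and lie farthest from it for *Runx3* and *Zbtb7b*.

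Of 11 genes of the Notch pathway, which induces *Tcf7* and *Gata3* in the thymus, 9 were tested, 2 rose and 2 fell. Of all entries tested, 15.6% rose and 21.5% fell. *Dtx1*, 1 of the 2 Notch pathway genes that fell, passed the filter only through its wild-type level. The receptor *Notch1* was at 98.5, 114 and 79.9 TPM in wild-type and at 386 and 336 TPM in Pax5-/- cells, a log2 change of 1.89 (SE 0.16, adjusted p = 1.41e-04, limma). The receptor *Notch2* rose by 1.42 on the log2 scale, and *Maml1* and *Dtx1*, a coactivator and a modulator of Notch, fell by 0.86 and 1.68, these 3 being named after their values were seen. *Hes1*, the classical Notch target, had means of 152 and 157 TPM (log2 change 0.06, adjusted p = 0.784, limma) and was likewise named afterwards.

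Of 21 genes that T cell factors are known to control or that mark T cell precursors, 13 were tested, 6 rose and 5 fell. Of these, *Cd4*, *Cd6*, *Cd7* and *Cd247* passed the filter through their Pax5-/- level alone, and 3 of these 4 rose. Of the 9 that passed it in both genotypes, 3 rose and 5 fell, where 15.6% of all entries tested rose and 21.5% fell. The 5 that fell were *Rag2*, *Thy1*, *Cd5*, *Zap70* and *Rag1*, with log2 changes of -1.56, -1.49, -1.38, -0.88 and -0.52. These 5 and *Cd4*, *Cd6* and *Cd7* were named after their values were seen. *Cd247*, the zeta chain of the T cell receptor complex, was at 0.248, 0.917 and 0.372 TPM in wild-type and at 10.6 and 12.3 TPM in Pax5-/- cells (log2 change 3.62, SE 0.32, adjusted p = 2.00e-04, limma). *Cd27*, a costimulatory receptor, rose from 11.2, 20.3 and 17.9 to 145 and 167 TPM. *Cd3e*, a chain of the same complex and a defining T cell gene, had 1, 5 and 4 reads in wild-type libraries and 0 in both Pax5-/- libraries, and *Cd3d* did not exceed 7 reads in any library. The entries of *Cd247*, *Cd27* and *Notch1* carry a suffix that the sources used here do not explain, and reads were counted without regard to strand, so that reads of overlapping genes could enter them.

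Of 20 genes of natural killer and innate lymphoid cells, 9 were tested, 5 rose and 2 fell. The filter let in 6 of these 9 through their Pax5-/- level alone, among them 4 of the 5 that rose, so the count of higher genes is in part set by the filter. Of the 3 that passed it in both genotypes, 1 rose and 2 fell, where 15.6% of all entries tested rose and 21.5% fell. *Il18rap* and *Il18r1*, the chains of the interleukin-18 receptor, had wild-type means of 0.601 and 0.129 TPM and Pax5-/- means of 24.9 and 6.06 TPM, with log2 changes of 4.53 and 3.36. *Nkg7*, a gene of cytotoxic granules, rose from 1.71, 5.35 and 5.12 to 17.9 and 22.7 TPM. *Klrb1c*, which encodes NK1.1, fell from 2.02, 8.78 and 6.04 to 1.07 and 1.25 TPM. *Ncr1*, a defining receptor of natural killer cells, had 2 reads or fewer in each library.

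Marker lists of other cells moved with the genotype, and their part in the values of the 8 genes was not tested. The counts below stand beside 15.6% of all entries tested that rose and 21.5% that fell. Of 10 mature T cell markers, 4 were tested, 1 rose and 1 fell. *Cd4*, the coreceptor of helper T cells, rose from a mean of 0.534 to 4.93 TPM (log2 change 2.38, SE 0.29, adjusted p = 8.65e-04, limma), having passed the filter only through its Pax5-/- level, *Cd5* fell by 1.38 on the log2 scale, and *Cd3e* was at 0 in both Pax5-/- libraries. The summed level of the list was 62.2 to 78.9 TPM in wild-type, 90.2 to 90.8 TPM in Pax5-/- and 102 to 116 TPM in Meox2-cre libraries, most of it *Lat* and *Ccr7*. Of 10 natural killer markers, *Eomes* among them, 3 were tested, 0 rose (limma, also 0 at an unadjusted p below 0.05 and with limma-voom) and 2 fell, and the sum was 7.77 to 15.8 TPM in wild-type, 2.59 to 5.03 TPM in Pax5-/- and 14.5 to 15.4 TPM in Meox2-cre libraries. Of 10 myeloid markers, 8 were tested, 0 rose and 2 fell (limma), with sums of 47.6 to 260 TPM, 58.2 to 90.4 TPM and 449 to 1236 TPM. At an unadjusted p below 0.05, 1 of the 8 was higher. With limma-voom, 1 of 9 myeloid markers was higher at an adjusted p below 0.05. Of 8 erythroid markers, 6 were tested and 4 fell, with sums of 168 to 384 TPM, 16.0 to 105 TPM and 350 to 510 TPM. Of 8 plasmacytoid dendritic cell markers, 6 were tested, 3 rose and 2 fell. *Cox6a2*, *Siglech* and *Pacsin1* rose, with log2 changes of 2.57, 2.20 and 1.92. Of these, *Siglech* passed the filter through its Pax5-/- level alone. *Irf8* and *Tcf4* fell, with log2 changes of -2.06 and -0.69. The sums were 401 to 460 TPM, 242 to 354 TPM and 472 to 475 TPM, most of it *Irf8*, *Bst2* and *Tcf4*. The lower sum in Pax5-/- libraries thus does not describe the 3 markers that rose. These 6 genes were named after their values were seen. The second wild-type library was the highest for 6 of the 8 genes. Among the wild-type libraries it also had the highest sums of natural killer, myeloid, mature T cell and plasmacytoid dendritic cell markers. Its sum of erythroid markers, 332 TPM against 168 and 384 TPM, was not the highest. Its sum of genes of B cell progenitors was again the highest, at 18640 TPM against 15823 and 15955 TPM. The part of other cells in the values of this library was not tested. Of 15 genes of B cell progenitors, which the sort favours, 10 fell and 1 rose, *Ly6d*, a marker of the Pax5-/- gate itself.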

How the data were processed

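RNA-seq values of 8 libraries of sorted pro-B cells were used. Per the study's methods, poly(A) RNA was sequenced, and the authors used TopHat 1.4.1a on mm9 (wild-type, Pax5-/-) or STAR 2.4.2a on mm10 (Meox2-cre) for alignment and featureCounts 1.5.0 for counting, and deposited TPM values. The test of Pax5-/- against wild-type cells was limma 3.58.1 under R 4.3.3, with lmFit, eBayes with trend and no covariates, on log2(TPM + 0.5), for entries with a mean above 1 TPM in a genotype, with Benjamini-Hochberg adjustment over 12066 entries. Fold changes on this scale are understated for low genes, and folds of means use TPM. Exact permutation tests cannot go below p = 0.1 with 3 against 2 libraries. Alternatives were pseudocounts of 0.1 and 1, no filter or one at 5 TPM, quantile normalization, rescaling by median ratios or without antigen receptor entries, robust eBayes or none of the trend, a 2-fold threshold, limma treat and omission of single libraries. The 518 immunoglobulin and T cell receptor entries were left out of the call rule (adjusted p below 0.05, more than 3-fold, above 5 TPM) only, and counts at an adjusted p below 0.05 include those tested.

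On simulated data with 12066 genes for this comparison, 54 of 100 genes changed 2-fold, 93 of 100 changed 6-fold and 5 of 11866 unchanged genes were called. The noise was Gaussian, independent between genes, and had each gene's own residual spread. Changed genes were drawn from those with a wild-type level above about 1 TPM. Only the 100 genes at each fold were changed, whereas 37.1% of all entries passed in the data, so these shares do not carry over to the data.

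Whole reads were recovered as the smallest whole numbers with the ratios of an entry's TPM over the 5 mm9 libraries (tolerance 1e-04), for 15968 of 15971 entries above 0 in at least 2 libraries (99.98%). This step, and limma-voom on these reads, were chosen after seeing the data. A common multiple of these reads cannot be seen in the ratios, and the length implied by the TPM of 1 read was within 2-fold of the exon length in GENCODE for 88.3% of 9938 genes. For the Meox2-cre tables the ratios of 3 libraries did not settle the reads, and their depth is unknown.

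The 8 genes and the lists were chosen with earlier results of these data known. The named genes are all 8, Pax5, and of each list those past the call rule, at most 4 per direction with the largest change, plus at most 2 near 0 that define a cell type. Genes of similar pattern were to be named for each called member, and none was called. Gene positions are from GENCODE for mm9, and promoters from RefSeq for GRCm38.p6. *Hba-a1* had several mm9 entries and was left out there. A further marker of the sort gates is not reported here, and the ChIP-seq samples are not analysed here. Tables and figures were made with Python 3.11.15, numpy 2.4.6, pandas 2.3.3, scipy 1.17.1 and matplotlib 3.10.9.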

Additional observations from a re-analysis of the deposited data

How the results depend on the processing

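No alternative reversed the direction of any of the 4 tested genes. Leaving out each library gave 0 to 2 of the 8 genes higher, against 3 with all libraries and 4 with limma-voom, which added *Gata3*, and 0 were higher without either Pax5-/- library (limma, 2 and 1 at an unadjusted p below 0.05), when the lone Pax5-/- library is assumed to vary like the wild-type libraries. The same range was 2 to 4 for the partner factors, 5 to 7 for the T cell genes and 3 to 5 for the natural killer and innate lymphoid genes that were higher, and 704 to 1977 for all entries. For lower genes it was 1 to 3 in the Notch pathway, 2 to 5 among the T cell genes, 0 to 2 among the natural killer and innate lymphoid genes and 825 to 3233 for all entries. With a filter at 5 TPM, 3 T cell genes and 3 natural killer and innate lymphoid genes were higher, 1 Notch pathway gene and 1 natural killer and innate lymphoid gene were lower, and 0 of the 8 genes were lower, because *Zbtb7b* was not tested there. Without the intensity trend, and without a filter, 1 natural killer and innate lymphoid gene was lower. With a 2-fold threshold in the call rule, 1 of the 8 genes was called higher, *Tox*. Rescaling by median ratios moved the median log2 change of all entries from -0.12 to -0.0031 and the log2 changes of *Tcf7*, *Tox*, *Runx3* and *Zbtb7b* to 1.03, 1.18, 0.98 and -1.99, and it took the share of higher genes among all adjusted calls from 42.1% to 51.8%. No paired analysis was possible because replicate numbers are not given in the labels. With 2 Pax5-/- libraries and few reads, a modest change or a fall of *Bcl11b*, *Zbtb16* or *Eomes* could have been missed at this depth.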
